A study of Homo sapiens with 24 samples.

Results

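The genes described here are the zinc finger genes of human chromosome 19, taken as the protein-coding genes of that chromosome whose symbol is ZNF followed by a number and at most 1 letter. The GENCODE annotation held 246 such genes among 20028 protein-coding genes. A gene was said to carry trimethylation of histone H3 at lysine 4 (H3K4me3) when an H3K4me3 region reached within 2 kb of one of its annotated start sites, and of several such regions the one with the largest mean normalized count served as the promoter region. Such a region was present at 232 of the 246 genes (94.3%, Wilson 95% interval 90.7% to 96.6%), against 75.3% of all protein-coding genes. Neighbouring genes can share a region, and the 232 genes lay on 224 distinct regions.

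Zinc finger proteins of this family bind DNA through arrays of C2H2 fingers, in which 2 cysteines and 2 histidines hold a zinc ion. Many of them also carry a KRAB domain, which recruits the co-repressor TRIM28 (KAP1) and, through it, the H3K9 methyltransferase SETDB1 and HP1 proteins. KRAB zinc finger proteins are best known for silencing retrotransposons. Their genes arose by repeated local duplication and lie in clusters on chromosome 19. The gene bodies of these clusters are known to carry the repressive mark H3K9me3 in many cell types, whereas H3K4me3 marks the start sites of active or poised genes.

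The cells were EndoC-βH3, an established human beta cell line made from fetal pancreas, immortalised with SV40 large T antigen and telomerase and carrying a tamoxifen-inducible Cre recombinase that removes these transgenes. The 8 H3K4me3 samples, each of 500000 cells, were 4 labelled non-senescent (treatment: control) and 4 labelled senescent, which had received 4-hydroxytamoxifen for 3 weeks. All 8 were given the genotype WT and derive from 1 cell line, and whether samples of a group were separate cultures is not given in the sources used here. The deposited values used here are means over all 8 samples, so the levels below describe both groups together, with no spread between samples and no comparison of the groups.

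The regions covered beta cell genes. Of 12 beta cell genes, 11 had a promoter region, where 75.3% of all protein-coding genes had one, and MAFA had none. The median mean normalized count was 260.5, with a range from 24.7 at INS, the insulin gene, to 665 at PAX6. Many of these regions were wide, and per kb of region the median was 25.2, beside 18.4 over all promoters. Among genes of other islet, exocrine, ductal, stromal, blood and endothelial cells, 8 had a region, at 1.12 to 30.7, and PPY and PTPRC had none. The median per kb of these regions was 8.43. As 75.3% of all protein-coding genes had a region, its presence alone does not mark a cell type. By level the 2 lists overlapped, since HHEX at 30.7 lay above INS, and KRT19 at 24.1 and SST at 21.9 lay close to it.

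Sequences from RefSeq (GRCh38.p14) show what these promoters look like. The promoters below are the 4 with the highest mean normalized count among those whose region held the RefSeq start and whose bases before the start were free of other annotated exons. They run 5′ to 3′ on the strand of the gene, up to the base before the start. Capitals mark the letters of any motif of a panel of 10 promoter motifs, on either strand.
ZNF616 (chr19:52139939-52140188, minus strand): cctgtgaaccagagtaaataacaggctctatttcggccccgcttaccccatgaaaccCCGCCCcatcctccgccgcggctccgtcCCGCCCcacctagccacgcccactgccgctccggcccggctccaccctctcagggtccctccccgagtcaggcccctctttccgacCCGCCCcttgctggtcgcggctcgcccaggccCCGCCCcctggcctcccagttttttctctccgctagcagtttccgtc
ZNF780B (chr19:40056232-40056481, minus strand): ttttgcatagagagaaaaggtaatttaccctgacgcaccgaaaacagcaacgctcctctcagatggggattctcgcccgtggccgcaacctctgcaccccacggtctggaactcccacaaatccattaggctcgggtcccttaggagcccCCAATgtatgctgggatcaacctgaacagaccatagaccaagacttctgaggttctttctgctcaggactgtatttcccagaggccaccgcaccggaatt
ZNF841 (chr19:52095766-52096015, minus strand): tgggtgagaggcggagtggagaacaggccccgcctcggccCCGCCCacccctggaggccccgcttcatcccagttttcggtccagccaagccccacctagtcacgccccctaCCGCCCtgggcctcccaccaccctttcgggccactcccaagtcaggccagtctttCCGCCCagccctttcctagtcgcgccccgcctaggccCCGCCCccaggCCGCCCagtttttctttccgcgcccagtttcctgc
ZNF576 (chr19:43596142-43596391, plus strand): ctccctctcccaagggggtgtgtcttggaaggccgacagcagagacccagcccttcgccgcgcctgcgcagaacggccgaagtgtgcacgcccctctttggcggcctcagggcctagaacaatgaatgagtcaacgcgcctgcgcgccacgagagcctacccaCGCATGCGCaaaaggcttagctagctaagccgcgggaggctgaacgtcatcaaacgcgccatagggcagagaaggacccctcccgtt
The ZNF616 and ZNF841 promoters, which are near neighbours on the chromosome, held the SP and KLF letters GGGCGG 4 and 5 times. That of ZNF780B held CCAAT, the letters of NF-Y, and that of ZNF576 held the NRF1 letters GCGCATGCG. The GC content of these stretches ran from 53.2% at ZNF780B to 69.6% at ZNF841.

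The 4 lowest promoters chosen in the same way follow. The stretch of ZNF560 stops after 61 bases, where another annotated exon begins.
ZNF414 (chr19:8514168-8514417, minus strand): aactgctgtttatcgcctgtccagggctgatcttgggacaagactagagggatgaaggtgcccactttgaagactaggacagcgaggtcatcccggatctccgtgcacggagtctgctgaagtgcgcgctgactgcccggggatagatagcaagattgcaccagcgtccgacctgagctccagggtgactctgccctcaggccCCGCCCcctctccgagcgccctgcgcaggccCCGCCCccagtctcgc
ZNF560 (chr19:9498617-9498677, minus strand): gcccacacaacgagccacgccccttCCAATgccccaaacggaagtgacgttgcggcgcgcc
ZNF66 (chr19:20776054-20776303, plus strand): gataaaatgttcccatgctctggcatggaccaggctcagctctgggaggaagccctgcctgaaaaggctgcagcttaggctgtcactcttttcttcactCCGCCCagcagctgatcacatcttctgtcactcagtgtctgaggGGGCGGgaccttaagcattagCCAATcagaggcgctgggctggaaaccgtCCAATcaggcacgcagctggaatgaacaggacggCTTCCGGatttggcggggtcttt
ZNF57 (chr19:2900678-2900927, plus strand): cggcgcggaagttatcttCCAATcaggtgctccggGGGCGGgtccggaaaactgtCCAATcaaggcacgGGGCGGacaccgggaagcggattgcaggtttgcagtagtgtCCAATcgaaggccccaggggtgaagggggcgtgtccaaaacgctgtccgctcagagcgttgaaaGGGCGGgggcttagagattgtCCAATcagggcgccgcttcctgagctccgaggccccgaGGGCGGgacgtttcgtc
Their regions had mean normalized counts of 6.90, 7.36, 11.3 and 11.4, against 189, 171, 139 and 113 at the 4 highest. The low promoters were not short of panel motifs, since that of ZNF57 held 8 matches and that of ZNF66 held 5. Their GC content, 56.0% to 67.2%, lay within the range of the 4 highest.

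A region was present more often at chromosome 19 ZNF genes than at other genes of the same chromosome. Of the 1230 other protein-coding genes of chromosome 19, 823 had a region (66.9%, Wilson 95% interval 64.2% to 69.5%). ZNF genes on other chromosomes resembled the chromosome 19 genes, with a region at 240 of 262 (91.6%, 87.6% to 94.4%). These intervals treat genes as independent, which duplicated neighbours are not, and no test was run. In 93.1% of the chromosome 19 ZNF genes with a region, the region held a start site itself, against 69.99% of the other chromosome 19 genes with a region and 77.7% of all such genes.

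The share with a region rose with CpG content in each of the 4 groups of genes. CpG content was taken as the observed over expected ratio in the 1 kb around the canonical start. At a ratio of 0.6 or more, 190 of 194 chromosome 19 ZNF genes had a region (97.9%), as did 88.6% of the other chromosome 19 genes, 98.6% of ZNF genes elsewhere and 93.2% of all genes. Between 0.4 and 0.6 the shares were 84.4% of 45, 52.7%, 75.9% and 64.4%. Below 0.4, where 366 other chromosome 19 genes but only 7 ZNF genes lay, 4 of the 7 had a region.

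The level of the regions was moderate and even. The 224 regions had a median mean normalized count of 54.8 (95% binomial interval of the median 50.2 to 62.5), with quartiles at 35.0 and 80.1 and a range from 1.79 to 189. The 672 regions of other chromosome 19 genes had a median of 27.8 (25.2 to 30.2), so the ratio of the medians was 1.97. The median was 56.3 at the 235 regions of ZNF genes on other chromosomes and 45.0 at the 13001 regions of all genes. Of the 672 regions, 33 were also promoter regions of a chromosome 19 ZNF gene and were counted on both sides.

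The spread was narrower than over all promoters. The upper quartile was 2.29 times the lower at the ZNF regions and 4.38 times over all promoters. The quartiles at ZNF genes elsewhere, 33.5 and 81.3, were close to the 35.0 and 80.1 of the chromosome 19 ZNF regions. Only 13 ZNF regions (5.80%) lay below 10. The shares were 25.1% at regions of other chromosome 19 genes, 7.23% at those of ZNF genes elsewhere and 15.4% over all promoter regions. Above 100 lay 21 ZNF regions (9.38%). Here the shares were 5.95% for other chromosome 19 genes, 17.0% for ZNF genes elsewhere and 17.5% over all. Wider regions hold more reads, and the ZNF regions had a median width of 2541 bp against 1792.5 bp for the other chromosome 19 genes. Per kb of region, the medians came closer together, at 19.7 for the ZNF regions, 14.5 for other chromosome 19 genes, 19.1 for ZNF genes elsewhere and 18.4 for all promoters. The spread differed less too, with an upper quartile per kb of 1.83 times the lower at the ZNF regions and 2.23 times over all promoters. Of the 224 ZNF regions, 143 (63.8%) were above the median of all promoters in level and 127 (56.7%) per kb.

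**Figure D1:**
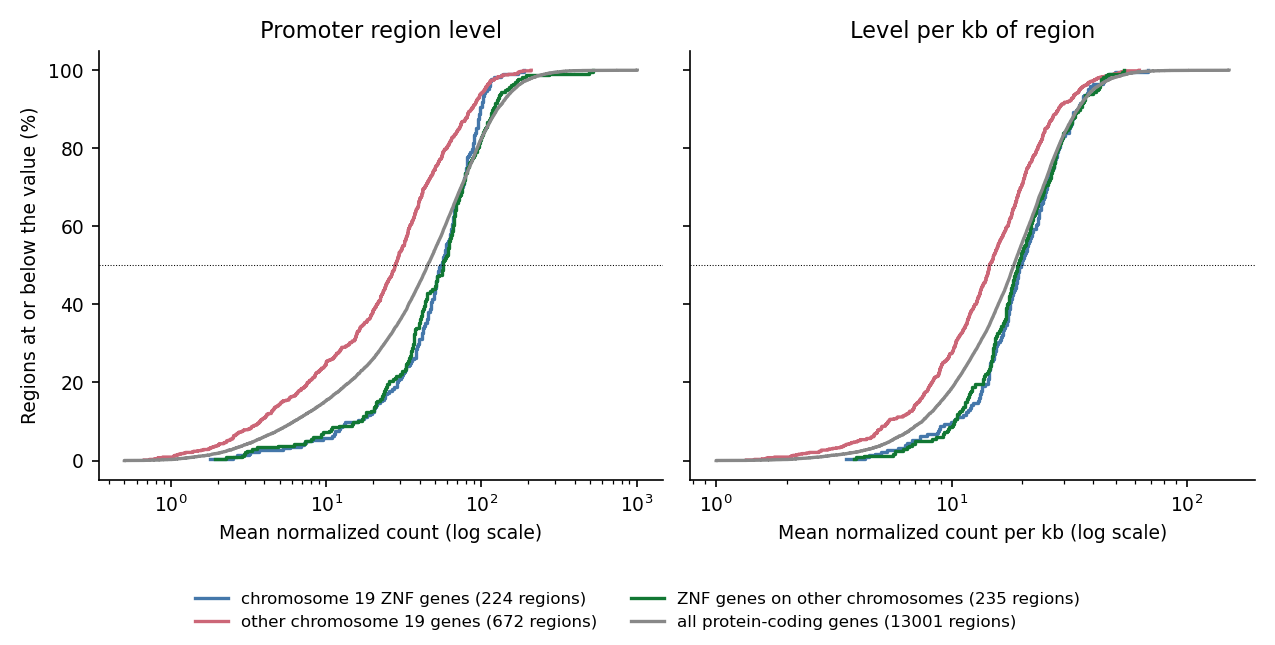
Cumulative share of promoter regions (%, vertical axis) at or below a given mean normalized count (left) or mean normalized count per kb of region (right), both on log scales, with 1 line for each of 4 groups of genes. The line of the 224 chromosome 19 ZNF regions runs beside that of ZNF genes on other chromosomes, crosses the dotted 50% line at 54.8 on the left, and lies to the right of the line of other chromosome 19 genes, which crosses at 27.8.

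The highest region was that of ZNF616 (ENSG00000204611.7) at chr19:52138066-52140841, which spans the gene's start site. Its mean normalized count of 189 is above that of 97.2% of all promoter regions, and its 68.1 per kb is above 99.7%. ZNF780B followed at 171 (38.8 per kb, chr19:40053260-40057668), then the region shared by ZNF841 and ZNF432 at 139, ZNF790 at 133, ZNF793 at 121, ZNF529 at 115, ZNF345 at 114, and ZNF649 and ZNF507 at 113 each. Of these 10 genes, ZNF345 and ZNF507 held no KRAB pattern in their protein and the other 8 did. Per kb the order differed, with ZNF284 at 49.4, ZNF709 at 46.4 and ZNF253 at 46.3 next after ZNF616.

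At the other end, ZNF90 had a region of 500 bp with a mean normalized count of 1.79, which lies at its start. ZNF415 followed at 2.50, ZNF682 at 2.66, ZNF154 at 3.16, ZNF835 at 3.22 and ZNF728 at 3.67, all with regions of 500 bp, the narrowest width in this set. ZNF85 stood at 5.27, ZNF730 at 5.83, ZNF414 at 6.90 and ZNF536, a brain-expressed regulator of neuronal differentiation with 10 fingers, at 7.20. Not all of these regions lay on a start site, since the ZNF154 region was 1351 bp and the ZNF682 region 488 bp from the nearest one. ZNF90, ZNF682 and ZNF85 lay in the block from 20 to 22 Mb, and ZNF728 and ZNF730 in the next. In such bulk samples, the mark in few of the cells and a weak mark in all of them cannot be told apart.

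Members with a known role, picked for that role after their values were seen, were spread over the range. ZNF91, which silences SVA retrotransposons, stood at 58.1, and ZNF93, which silences LINE-1 elements, at 98.7. ZNF274, which brings SETDB1 to the 3′ ends of zinc finger genes, stood at 71.8. ZNF587 and ZNF417, which act on endogenous retroviruses of the HERV-K group, stood at 60.1 and 32.1. ZNF808, whose loss in humans causes pancreatic agenesis, stood at 30.5 (16.9 per kb), below the lower quartile of the ZNF regions. ZNF473, a factor of histone pre-mRNA processing, stood at 78.8 on a region shared with VRK3.

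Levels differed along the chromosome. In blocks of 2 Mb counted from the short-arm end, 25 of 30 blocks held ZNF genes and 15 held at least 5 of their regions. The medians of these 15 blocks ran from 20.4 to 89.4, a ratio of 4.38, and per kb from 12.1 to 25. The ratio depended on where the blocks were drawn, at 8.05 with the 2 Mb blocks shifted by 1 Mb and 18.5 with blocks of 1 Mb. In all 13 blocks with at least 5 regions of ZNF genes and 5 of other genes, the ZNF median was the higher one, and per kb it was higher in 12 of 13. Outside these 13 blocks this was not always so. From 2 to 4 Mb, the median of 4 ZNF regions was 14.9, against 22.1 for 34 regions of other genes (11.8 against 12.9 per kb).

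Among these 15 blocks the highest median was that of 36 to 38 Mb, a part of 19q13.12 where 26 ZNF genes lay on 21 regions. Its median was 89.4 (25 per kb), and the levels ran from 49.7 at ZNF585A to 133 at ZNF790, with 17 of the 21 regions above the median of all 224. Per kb the block did not stand apart, since the medians were 24.9 at 52 to 54 Mb, 24.5 at 44 to 46 Mb and 24.2 at 10 to 12 Mb, and its median width of 3484 bp was the largest of the 15 blocks. The 6 regions from ZNF567 to ZNF420 lay at 91.9 to 133, and the next 4 regions along the block, those of ZNF585A, of ZNF585B and ZNF383, of ZNF875 and of ZNF527, lay at 49.7 to 53.2. Per kb these 2 runs overlapped, at 16.7 to 34.9 and 18.2 to 25, with ZNF420 the lowest of all 10 regions. The region of ZNF569 and ZNF570 followed at 82.9, then ZNF793 at 121 and the region of ZNF540 and ZNF571 at 103.

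Among blocks with at least 5 regions, the lowest median was that of 22 to 24 Mb, in the cluster of 19p12 next to the centromere. Of 15 ZNF genes there only 7 had a region, with a median of 20.4 and a range from 3.67 at ZNF728 to 58.1 at ZNF91. The neighbouring block from 20 to 22 Mb had 14 regions for 16 genes, with a median of 34.4 and a range from 1.79 at ZNF90 to 94.9 at ZNF708. The levels of ZNF430, ZNF714, ZNF431, ZNF708 and ZNF738, consecutive along this block, were 49.4, 34.7, 50.5, 94.9 and 38.5, so ZNF708 stood well above both of its neighbours. The block from 18 to 20 Mb, which lies before these on the short arm, had a median of 80.2 over 5 regions, with ZNF93 highest at 98.7.

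Of the other blocks with at least 5 regions, that of 52 to 54 Mb had the widest range. Its 34 ZNF genes had 32 regions, with a median of 58.2, from ZNF415 at 2.50 to ZNF616 at 189. The block from 56 to 58 Mb, with 39 genes and 39 regions, had a median of 51.5, and ZNF211 was highest at 101. Block medians were 69.8 at 44 to 46 Mb (ZNF284 highest, at 97.8), 68.4 at 50 to 52 Mb (ZNF649), 61.4 at 34 to 36 Mb (ZNF302, at 106), 59.5 at 58 to 60 Mb (ZNF324B, at 92.1) and 57.0 at 42 to 44 Mb (ZNF576). On the short arm they were 52.8 at 10 to 12 Mb (ZNF823, at 90.0), 49.2 at 12 to 14 Mb (ZNF709, at 86.5) and 47.0 at 8 to 10 Mb (ZNF561, at 108). The block from 54 to 56 Mb stood at 34.8 with a narrow range, from 23 to 42.1 at ZNF579.

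**Figure D2:**
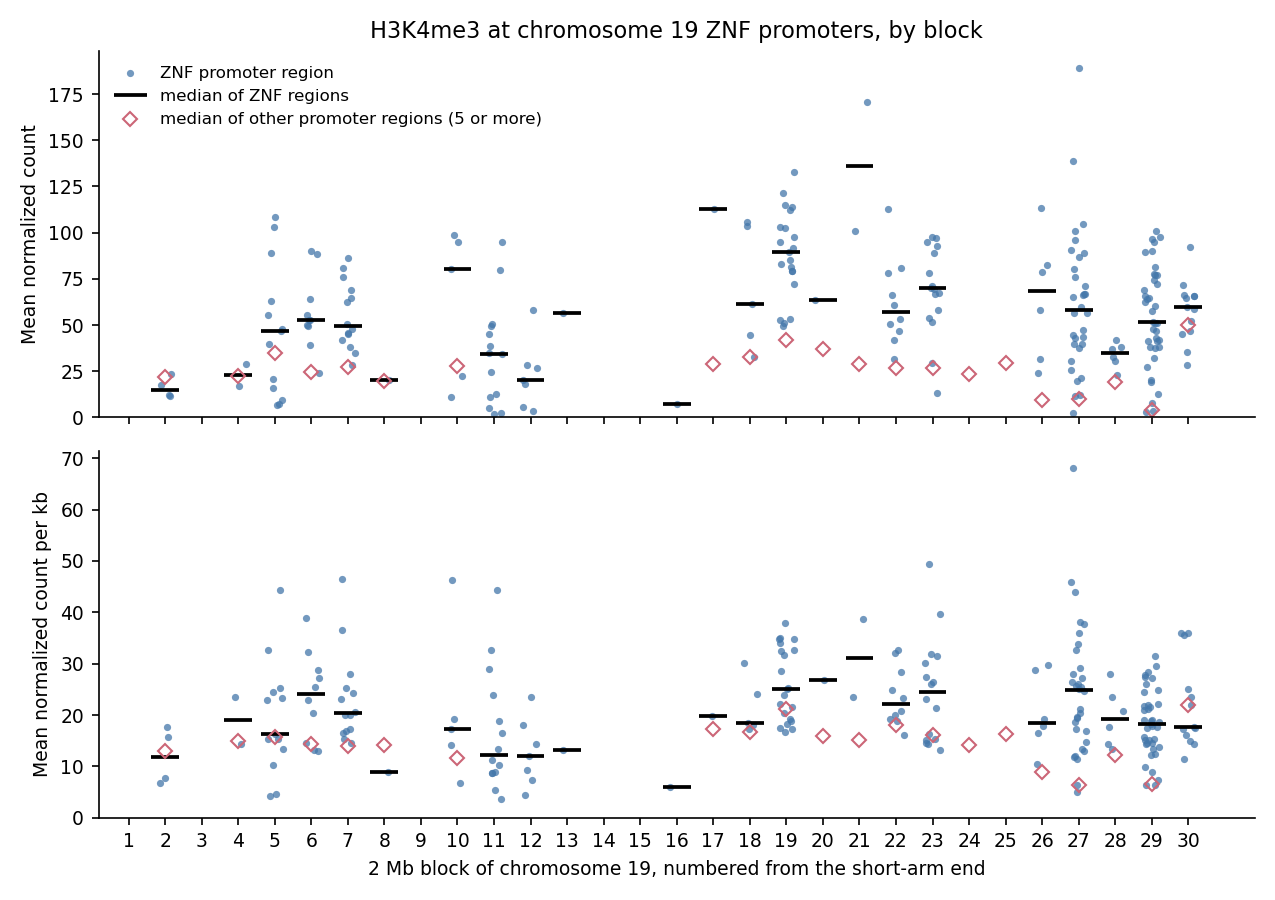
Mean normalized count (upper panel) and mean normalized count per kb (lower panel) of each chromosome 19 ZNF promoter region, by 2 Mb block numbered from the short-arm end, so that block 19 is 36 to 38 Mb. Points are regions, spread sideways at random within a block, bars are medians and open diamonds are medians of other promoter regions in blocks with at least 5 of them. Block 19 has its median at 89.4 and blocks 11 and 12 have theirs at 34.4 and 20.4.

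Neighbouring promoters were weakly alike in level. Over 193 pairs of adjacent ZNF genes within 200 kb on different regions, Spearman's rho was 0.38 for the level and 0.22 per kb, as a description, since adjacent genes share base composition, descent and mappability. Over the 224 regions the level followed the width (rho 0.74, against 0.88 over all 13001 promoter regions). The level per kb did not follow the width here (rho 0.09), unlike over all promoters (rho 0.49).

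The regions reached further into the gene than before it. In 203 ZNF genes the region held the canonical start, with a median of 970 bp before it and 1503 bp after it, and the downstream side was the longer one in 71.4%. Over all promoters the medians were 1116 and 1686.5 bp, and the downstream side was the longer one in 71.6%. Further regions near the starts were frequent. A single region lay in the windows of 73 ZNF genes (31.5%, against 55.5% of all genes with a region), and up to 11 lay there in the other 159. The windows of all annotated starts of a gene were pooled, so these shares also depend on how many starts are annotated. Numbers of starts were not compared between the groups. In these 159 genes the highest region was a median of 6.27 times the next one, and in 31 the next one had over 50% of its level.

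**Figure D3:**
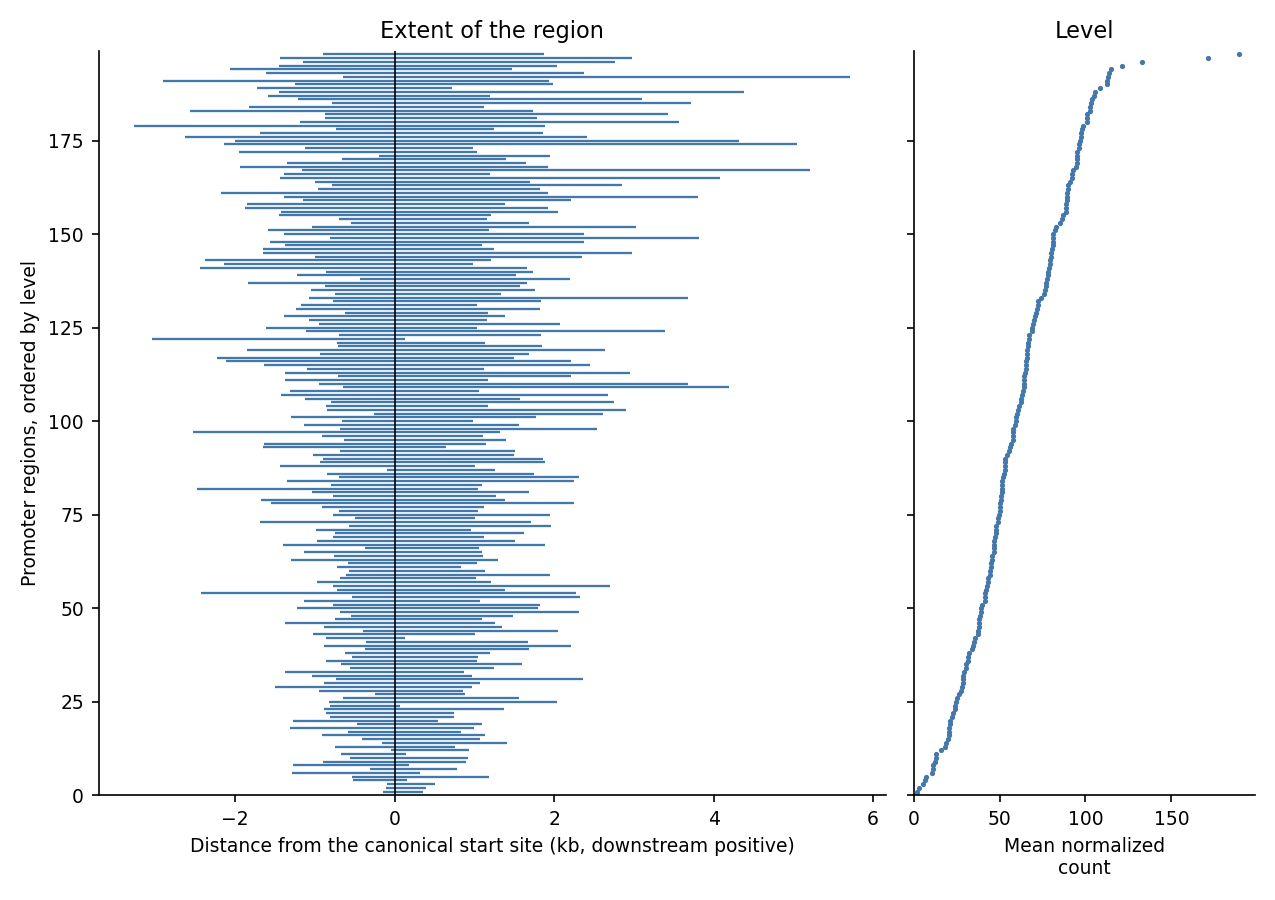
Extent of 198 distinct promoter regions that hold the canonical start of a chromosome 19 ZNF gene (left; kb from the start, downstream positive), each a line, ordered from the lowest mean normalized count at the bottom to the highest at the top, and the count itself (right). The lines reach further to the downstream side and grow longer towards the top.

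The 14 ZNF genes without a region lay mostly together. They were ZNF556, ZNF486, ZNF626, ZNF208, ZNF257, ZNF676, ZNF729, ZNF98, ZNF492, ZNF99, ZNF723, ZNF541, ZNF114 and ZNF534. The 8 from ZNF208 to ZNF723 follow each other without a ZNF gene with a region between them, from chr19:21932958 to 22858667 in 19p12. That stretch was not empty of H3K4me3 regions, since it held 63 with a median mean normalized count of 2.38 and a maximum of 6.73, none within 2 kb of these starts. The nearest region was 2.1 kb from a start of ZNF723, just outside the window, and 38.9 kb at the farthest, from ZNF486, with a median of 10.3 kb. ZNF208 has the most fingers of all 246 genes, at 36, and ZNF541 is a gene of the male germ line.

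Repeated sequence and low CpG content moved with the missing regions. As a measure of whether short reads can be placed, 24-base stretches of the 1 kb around each canonical start were looked up in the whole genome. A median of 65.8% of them occurred once at the 14 genes without a region and 96.7% at the 232 with one. Of the 26 ZNF genes with under 70% such stretches, 17 had a region (65.4%), and of the other 220, 215 had one (97.7%). The CpG ratio was 0.54 at the 14 genes and 0.72 at the 232. Both medians were lower at the 14 genes, and the part of either measure in the missing regions was not tested. Single genes departed from the medians. The CpG ratios of ZNF541 and ZNF534 were 0.82 and 0.75, and that of ZNF556 was 0.36. For ZNF541, ZNF556 and ZNF534 the single-copy share was 100%, 98.3% and 75%, and for ZNF486 and ZNF626 it was 70%, and no region was found at these either. Over distinct regions, each counted once, the median level was 58.1 at genes with repeated starts and 53.3 at the other genes with a region.

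**Figure D4:**
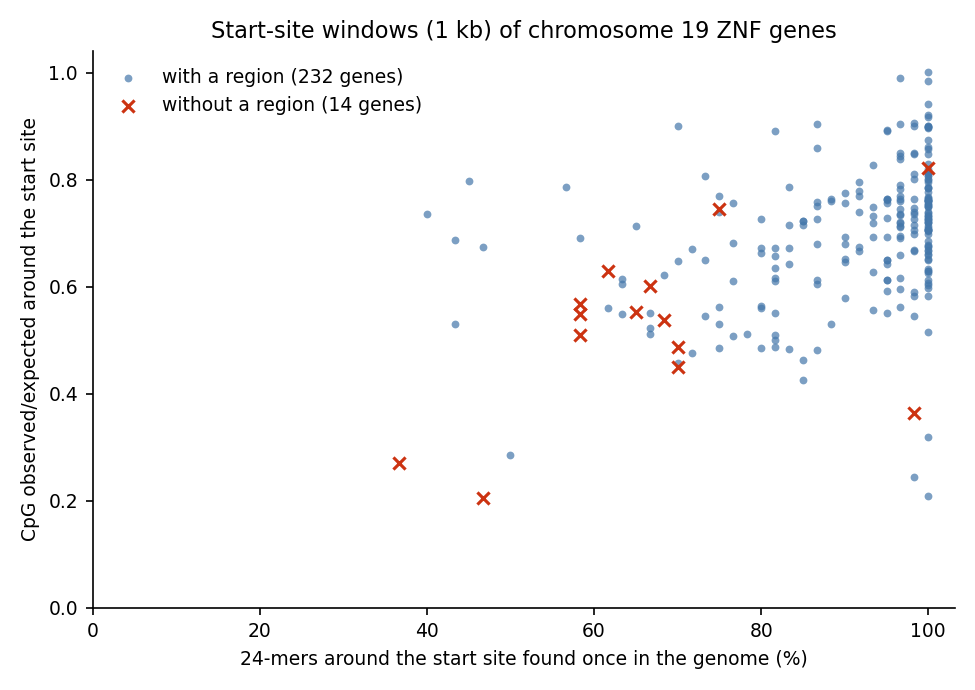
CpG observed over expected ratio (vertical axis) against the share of 24-base stretches found once in the genome (%, horizontal axis) in the 1 kb around the canonical start of each ZNF gene of chromosome 19. Of the 14 genes without a region (crosses), 9 lie under 70% on the horizontal axis, as do 17 of the 232 with a region (dots).

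Of the 224 regions, 41 were the promoter region of more than 1 protein-coding gene. The count was 32 with canonical starts only and 29 with starts of protein-coding transcripts. Sharing was not particular to ZNF genes, since 15090 protein-coding genes in all lay on 13001 regions, and 823 other chromosome 19 genes on 672. A pair of ZNF genes shared 8 of the 41. Another 16 were shared with a named gene of another kind or a read-through gene, and 17 with unnamed gene models only. In 6 of the 8 pairs the genes are transcribed away from each other, namely ZNF490 and ZNF791, ZNF565 and ZNF146, ZNF829 and ZNF568, ZNF585B and ZNF383, ZNF569 and ZNF570, and ZNF540 and ZNF571. Their canonical starts were 41 to 7678 bp apart, and under 500 bp in 4 pairs. ZNF432 and ZNF841, and ZNF580 and ZNF581, lie on the same strand, and ZNF432 reached the shared region through an alternative start, since its canonical start was 46927 bp from that of ZNF841. Regions of ZNF pairs had levels of 37.0 at ZNF580 and ZNF581 to 139 at ZNF432 and ZNF841, with a median of 88.9 (22.1 per kb). The 41 shared regions had a median of 64.4 and the 183 others 52.7 (22 and 19 per kb).

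Among the partners of the other kind were DEDD2 beside ZNF526, ELOF1 beside ZNF627, VRK3 beside ZNF473, PPP2R1A beside ZNF836, FIZ1 beside ZNF524, and IRGQ and SRRM5 beside ZNF576. PPP2R1A codes for the scaffold subunit of protein phosphatase 2A and ELOF1 for a transcription elongation factor. For such regions the mark cannot be assigned to 1 of the genes. The values were 50.4 at ZNF526, 55.6 at ZNF627, 78.8 at ZNF473, 101 at ZNF836, 38.3 at ZNF524 and 113 at ZNF576.

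Motif letters were looked up in the 250 bases before and 50 after the RefSeq start, which were at hand for 216 of the 246 genes and for 15345 protein-coding genes in all. The letters searched for SP and KLF factors, which bind GC-rich promoters, were GGGCGG. Those for NF-Y, a common activator of promoters, were CCAAT. ETS factors, a large family of activators, were represented by CCGGAAG. For the regulators NRF1, CREB and ATF, YY1 and ZNF143 they were GCGCATGCG, TGACGTCA, AAGATGGCG and ACTACAATT, and CTCGCGAGA is a promoter element of a palindromic kind. For USF the word was CACGTG. The TATA box, found at many tissue-restricted genes, was searched as TATAAA. All were searched as exact letters on both strands. None of these words contains another, though matches may overlap at their ends. A match is a run of letters and not a shown binding site.

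The ETS letters showed the largest difference from all promoters among the 10 motifs in percentage points, and the TATA box letters the largest ratio. CCGGAAG was present in 98 of the 216 chromosome 19 ZNF promoters (45.4%), in 34.3% of those of ZNF genes elsewhere, in 13% of those of other chromosome 19 genes and in 14.4% of all. CCAAT was present in 53.7% of the ZNF promoters, 37.6% of those of other chromosome 19 genes and 36.6% of all. GGGCGG was present in 67.6% of the ZNF promoters and 59.2% of all, but in 66.6% of those of other chromosome 19 genes and 67.7% of those of all genes with a region. TATAAA was rarer, in 4 of the 216 ZNF promoters (1.85%) against 9.63% of all. It was in 6.55% of promoters of all genes with a region and 4.23% of those of ZNF genes elsewhere. CACGTG was also rarer, at 4.17% against 8.89% of all. It was in 9.73% of promoters of all genes with a region and 6.10% of those of ZNF genes elsewhere. The other 5 motifs were in 0.926% to 3.70% of the ZNF promoters and 0.482% to 2.80% of all.

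The ETS letters lay close to the start. Of 110 matches in the ZNF promoters, 86 (78.2%) lay within 50 bases of the RefSeq start, against 55.0% of 2581 matches in other promoters, and 46 were on the strand of the gene and 64 on the opposite one. The level did not separate promoters with and without them, with medians of 51.9 and 58.0 (18.8 and 20.4 per kb). Of 9 genes without a region and with a RefSeq promoter, 6 held the letters. In the whole width of the deposited regions CCGGAAG was present in 53.6% of the 224 ZNF regions, in 33.9% of those of other chromosome 19 genes, in 44.3% of those of ZNF genes elsewhere and in 30.7% of all 13001. Per 10 kb there were 2.55, 2.37, 2.12 and 1.58 matches, so the density at the ZNF regions was close to that at other promoters of the chromosome.

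Clusters differed in the share of promoters with these letters. All 10 promoters from 22 to 24 Mb held them, as did 10 of 15 from 20 to 22 Mb, 19 of 28 from 52 to 54 Mb and 23 of 35 from 56 to 58 Mb. They were in 7 of 25 from 36 to 38 Mb and in 1 of 15 from 12 to 14 Mb. The block from 36 to 38 Mb had the highest median level among blocks with at least 5 regions. Some matches had the same surroundings, and 11 runs of 19 bases around the letters occurred in at least 2 ZNF promoters. The first of the 3 most frequent was also in 1 promoter of a gene outside this set. These 3 are shown with the letters in capitals, read on the strand that has CCGGAAG. Each is headed by the chromosome 19 ZNF genes that hold it.
ZNF723, ZNF724, ZNF726 and ZNF730: caaatcCCGGAAGccgccc
ZNF43, ZNF85, ZNF492 and ZNF91: cacatcCCGGAAGccgccc
ZNF611, ZNF808 and ZNF845: gcaaacCCGGAAGcggatc
The first 2 runs belong to the 19p12 cluster and differ from each other in the bases before the letters, and the last to the block from 52 to 54 Mb. Genes with the same run differed in H3K4me3. Of the first 4, ZNF723 had no region and the levels of ZNF724, ZNF726 and ZNF730 were 20.4, 18.2 and 5.83. Of the next 4, ZNF492 had none and ZNF43, ZNF85 and ZNF91 stood at 45.2, 5.27 and 58.1. ZNF611, ZNF808 and ZNF845 stood at 66.6, 30.5 and 96.3.

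Further stretches show the letters in 3 promoters whose surroundings are unlike each other. They are the 3 with the highest levels among promoters that held the letters before the start, outside those printed above, and were chosen after the values were seen. Capitals mark CCGGAAG or its reverse complement.
ZNF284 (chr19:44071925-44072051, plus strand): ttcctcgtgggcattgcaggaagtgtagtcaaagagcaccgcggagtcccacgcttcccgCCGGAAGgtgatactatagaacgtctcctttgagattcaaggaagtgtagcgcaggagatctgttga
ZNF460 (chr19:57279858-57279981, plus strand): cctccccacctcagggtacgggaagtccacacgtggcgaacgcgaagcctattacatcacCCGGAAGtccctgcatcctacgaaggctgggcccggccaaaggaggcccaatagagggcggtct
ZNF776 (chr19:57746737-57746814, plus strand): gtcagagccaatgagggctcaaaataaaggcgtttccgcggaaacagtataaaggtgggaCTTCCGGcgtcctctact
The letters ended 167, 57 and 11 bases before the RefSeq start of ZNF284, ZNF460 and ZNF776, and the regions had mean normalized counts of 97.8, 89.5 and 77.7.

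**Figure D5:**
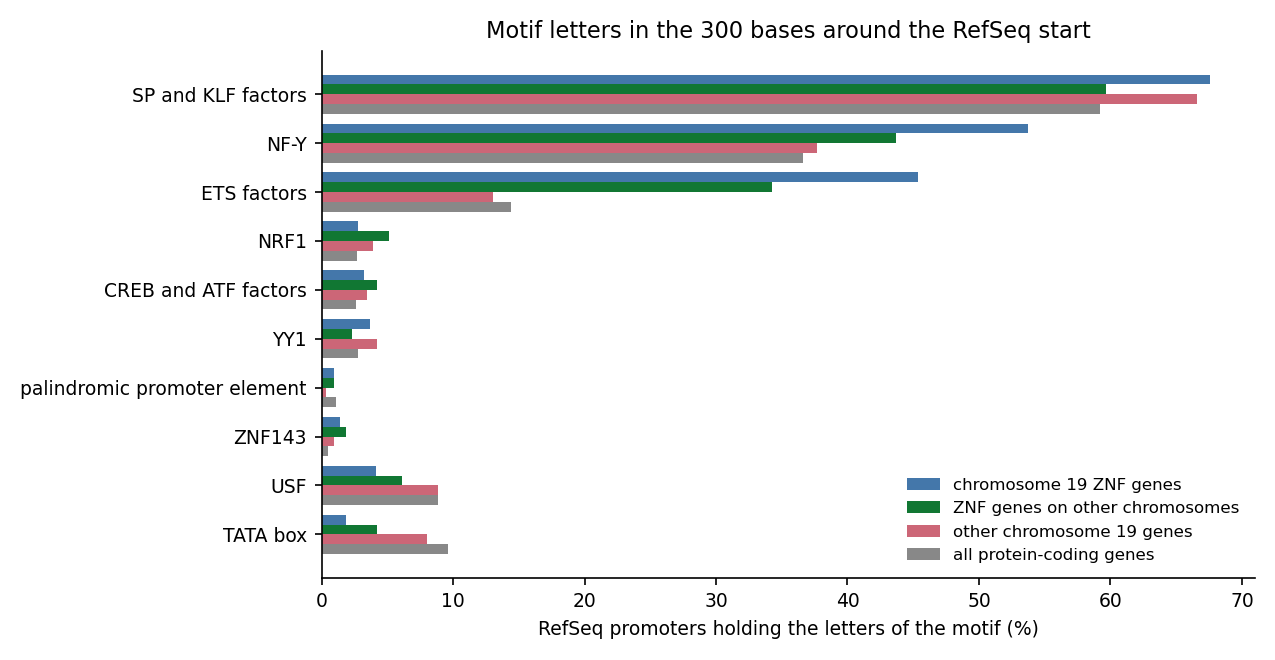
Share of RefSeq promoters (%, horizontal axis) that hold the exact letters of each motif, named by its factors, in 4 groups of genes (bars). The ETS bar of the chromosome 19 ZNF genes ends at 45.4% and that of all genes at 14.4%, and the TATA box bars end at 1.85% and 9.63%.

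The encoded proteins were compared by class. Proteins translated from the canonical transcripts held 1 to 36 fingers, with a median of 12, and a pattern of the KRAB A box was found in 169 of 246. This pattern is strict, and a shorter one added after the values were seen found 186. Genes with the strict pattern had a median level of 56.3 over 152 regions and the others 51.6 over 72, with 19.2 and 20.8 per kb. With the shorter pattern the medians were 59.6 over 169 regions and 46.6 over 55, with 19.96 and 19.3 per kb. The gap in level and the order per kb thus depended on the pattern used. A region was present at 158 of 169 genes with the strict pattern and 74 of 77 without. By number of fingers the medians were 38.4 at 0 to 6 fingers, 59.2 at 7 to 10, 51.9 at 11 to 14 and 64.3 at 15 or more, and Spearman's rho between fingers and level was 0.10 over the 224 regions. The number of fingers thus went with the level only weakly, and per kb hardly (rho 0.07).

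A list of KRAB zinc finger co-repressor and heterochromatin genes had a promoter region at 11 of 11, where 75.3% of all protein-coding genes had one. Their median was 56.1 (21.5 per kb), beside 45.0 (18.4 per kb) over all promoters. TRIM28, which binds the KRAB domain and itself lies on chromosome 19, stood at 37.8 (20.1 per kb). SETDB1, the H3K9 methyltransferase, stood at 84.9 (19.4 per kb) and its cofactor ATF7IP at 139 (41.7 per kb). Of the genes for HP1 proteins, CBX5 stood at 255, CBX3 at 161 and CBX1 at 55.5, or 26.2, 28.4 and 22.1 per kb. The lowest was UHRF1, a factor of maintenance DNA methylation on chromosome 19, at 16 (16.3 per kb), and DNMT1 stood at 53.9 (21.5 per kb). Per kb, ATRX was the lowest at 11.3, although its level of 44.2 was near the median of all promoters.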

How the data were processed

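H3K4me3 was profiled in 8 samples of EndoC-βH3 cells by MINT-ChIP, in which MNase fragments of each sample are barcoded and pooled before immunoprecipitation. The 16 samples of the other marks were not analysed here. The study's methods name Bowtie2 (hg38), SAMtools, HOMER peak calling and DESeq2, and the submitters' processing notes give no versions. How peaks were merged, reads counted and duplicates handled is not given in the sources used here. The authors deposited 97545 regions with a mean normalized count over all 8 samples, a signal whose library totals are unknown, so no counting interval can be given. The other deposited columns hold the authors' comparison of senescent with non-senescent samples (log2 fold change, standard error, score and p-values) and were not used. There were 0 columns of per-sample values.

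Regions were joined to GENCODE release 44 start sites on the same build, with coordinates as deposited. Levels were also divided by region width in kb. Single-copy share came from 60 stretches of 24 bases in the 1 kb around each canonical start. Scripts used Python 3.11.15, numpy 2.4.6, pandas 2.3.3, scipy 1.17.1, numba 0.67.0 and pysam 0.24.0, and the region join, the choice of region and the interval of the median were tested on simulated data. Named genes were the 10 highest and 10 lowest members, the highest of each block with at least 5 regions, members that share a region and members without one. Members with known roles, neighbours along a block and genes with the same bases around a motif were added after their values were seen. The genes and lists were chosen with earlier results of these data known. Genes are not replicates, so no test was run, and intervals are Wilson intervals of shares or binomial intervals of medians. Alternatives changed the window, the start sites, the choice of region, a minimum level and the blocks. 1 gene of the marker list is not reported here.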

Additional observations from a re-analysis of the deposited data

How the results depend on the processing

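Of 63 recalculations, 49 stayed within the interval of the reported value, or within 1.5-fold for counts, and 14 did not. The ratio of the highest to the lowest block median (4.38) was 18.5 with blocks of 1 Mb and 8.05 with blocks shifted by 1 Mb, 3.71 with canonical starts only, 3.80 and 3.36 with regions of at least 5 and at least 10, 3.36 where the region had to hold a start site, and 5.70 with all regions of a window summed. Summing raised the median level from 54.8 to 68.8. The ratio to the other chromosome 19 regions (1.97) was 1.71 and 1.57 with regions of at least 5 and at least 10, and 1.68 where the region had to hold a start site. The share of genes with a region (94.3%) was 89.0% with regions of at least 10, 90.2% where the region had to hold a start site, and 97.7% without starts of repeated sequence, an alternative chosen after seeing the data. The last 3 kinds of change leave out regions or genes by construction. The alternative without promoter regions of more than 2 copies left nothing out, since no region passed that limit, and so was no check. Its unchanged values are nevertheless counted among the 49. No paired analysis was possible because the deposited values used here are means over all 8 samples, and for the same reason no sample could be left out in turn. Library depths are unknown, which limits how low values such as 1.79 can be read.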

Other observations

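Zinc finger genes of chromosome 19 under other symbols (ZFP, ZSCAN, ZIK, ZIM and ZBTB genes and read-through genes named after ZNF genes) had a region at 18 of 21. The share was 66.9% over all chromosome 19 genes outside the ZNF set and 75.3% over all protein-coding genes. This list went by symbol, and the fingers of its proteins were not counted. The median mean normalized count of the 18 was 50.9 (22.4 per kb). Of these 18 regions, 4 are also promoter regions of ZNF genes described above (those of 3 read-through genes and ZIK1), and the other 14 had a median of 41.9 (17.8 per kb). ZFP30 stood at 164, above all ZNF regions of chromosome 19 but those of ZNF616 and ZNF780B, followed by ZSCAN22 at 107 and ZFP14 at 102. ZFP30 and ZFP14 lie between 36 and 38 Mb, the block with the highest ZNF median among those with at least 5 regions. ZIM2 and ZIM3, which lie within 1 Mb of each other on the long arm, stood at 1.12 and 3.94, and ZSCAN4, ZSCAN5B and ZSCAN5C, the first of them known from the early embryo, had no region, whereas ZSCAN5A stood at 93.2.

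In the whole width of the regions the YY1 letters AAGATGGCG were present in 13.8% of the 224 ZNF regions, 6.99% of those of other chromosome 19 genes, 8.09% of those of ZNF genes elsewhere and 5.33% of all promoter regions. Per 10 kb these were 0.532, 0.369, 0.270 and 0.215 matches. The shares of ZNF promoters and of all promoters in the RefSeq window around the start were 3.70% and 2.80%. TATAAA was present in 67.9% and 60.9% of the regions, with 7.09 and 7.47 matches per 10 kb. These are descriptions of letters in regions of unequal width and base composition.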
